A study of Homo sapiens with 38 samples.

Results

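The ribosomal RNA (rRNA) entries described here are the 43 features of the count table that are typed as rRNA, have a summed count of at least 500 over all 38 libraries, and are not URS000234028B or URS0002340650. They are 43 of 77 rRNA features and of 90127 features in all, and they held 13.9% of all counts. The members were chosen by their summed count, and the 2 entries left out by name were set apart for their behaviour in earlier results of these data. The members just inside the threshold had summed counts of 762, 919 and 1138, and the features just outside it had 427, 324 and 68. By name and by counts the members form 5 kinds: 22 entries for 5S rRNA, 10 for 5.8S rRNA, 6 loci named RF00002 (the Rfam family of 5.8S rRNA), the 5S pseudogenes RNA5SP150 and RNA5SP194, and the RNAcentral entries URS0002345A45, URS0002338F6B and URS00023365A5. RNAcentral is a catalogue of non-coding RNA sequences, and no gene symbol was found for these 3.

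The study sequenced small RNA of KG1a and HL60, human acute myeloid leukaemia lines of wild-type genotype, and of the extracellular vesicles that each line released, separated into large (lEV) and small (sEV) ones. Every source was taken as total RNA and as RNA enriched by rPAL, a periodate oxidation and aldehyde ligation that puts biotin on the sialic acid of glycoRNA so that it can be pulled down. The 12 groups had n = 4 in KG1a cells (total and rPAL) and n = 3 in each other group. Cells were grown with 10% fetal bovine serum (FBS), while vesicles came from cells kept for 2 days without it, so a comparison of vesicles with cells is also one of culture without and with serum. Whether replicates came from separate cultures is not stated in the labels. A p-value therefore reflects the spread of these samples alone, which may be technical.

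The large subunit of the ribosome holds 28S, 5.8S and 5S rRNA. 5.8S rRNA is cut out of a long precursor that RNA polymerase I makes in the nucleolus, and it pairs with 28S rRNA in the ribosome. 5S rRNA is made from a separate tandem gene cluster by RNA polymerase III and reaches the ribosome with ribosomal proteins. Copies of both genes, some of them decayed into pseudogenes, lie in many places in the genome, so a short read of either RNA can fit several entries equally well.

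The 5S genes can hardly be told apart by sequence. In GENCODE release 29 on GRCh38, RNA5S1 to RNA5S17 lie on the minus strand of chromosome 1 as single-exon genes, and 16 of these 17 genes had the same sequence, RNA5S9 being the exception. The pseudogene RNA5SP150 lies on chromosome 3, opposite to an intron of SOX2-OT, and RNA5SP194 lies on chromosome 5, opposite to an intron of SIL1. Each pseudogene is also overlapped on its own strand by a second annotated rRNA pseudogene, AC007547.3 for RNA5SP150 and AC011405.2 for RNA5SP194.

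The 5.8S sequences, read from the same release, show identical genes beside the RF00002 loci, which differ from them at many positions. The 4 RNA5-8SN2 copies on chromosome 21 with a GENCODE sequence were identical over 153 bases, and the one printed is chr21:8395607-8395759 on the plus strand. The RF00002 locus ENSG00000276871.1 (chr22:11249809-11249959, minus strand) had 14 substitutions and 2 gap positions against it and shared 8 of 132 windows of 20 bases. ENSG00000283274.1 on chromosome 14 differed from that locus by 1 substitution, written C111T with the base of the chromosome 14 locus first and positions counted from its 5′ end. ENSG00000283291.1 (chr20:29741510-29741661, minus strand) had 20 substitutions and 1 gap position and shared 11 of 133 windows. Capitals mark bases that differ from the 5.8S gene, and bases missing against it are not marked.
RNA5-8SN2: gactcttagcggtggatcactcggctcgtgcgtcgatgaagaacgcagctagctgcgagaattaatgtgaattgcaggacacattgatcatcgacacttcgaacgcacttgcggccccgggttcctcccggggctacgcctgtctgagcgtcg
ENSG00000276871.1: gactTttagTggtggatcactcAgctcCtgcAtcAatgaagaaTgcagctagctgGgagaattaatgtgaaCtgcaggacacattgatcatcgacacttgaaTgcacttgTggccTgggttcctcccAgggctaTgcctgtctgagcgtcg
ENSG00000283291.1: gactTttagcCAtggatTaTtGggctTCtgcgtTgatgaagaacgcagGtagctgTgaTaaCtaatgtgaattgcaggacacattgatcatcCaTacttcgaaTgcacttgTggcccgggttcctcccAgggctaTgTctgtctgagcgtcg

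Entries of 1 RNA had nearly the same counts. The 10 entries for 5.8S rRNA had summed counts from 3046077 to 3073008, and no pair of them differed by more than 0.0994 on the log2 scale in any library. They are 8 genes named RNA5-8SN2 or RNA5-8SN4 and the unnamed entries ENSG00000288326.1 and ENSG00000288387.1, and together they held 63.7% of the members' counts. The unnamed entries were placed in this family by their counts, so their agreement with it was in part set beforehand. The 22 entries for 5S rRNA had summed counts from 25738 to 27237. They are RNA5S1 to RNA5S17 and 5 unnamed Ensembl entries that were placed in this family by their counts, and they held 1.22% of the members' counts. A 5S entry had on average 24.8 counts in the lowest library, and single pairs of entries differed by up to 1.14 on the log2 scale in a library. RNA5S9, the gene with a sequence of its own, was the lowest of the 22, at 96.3% of the median of the other copies and below that median in 27 of 38 libraries. URS0002345A45 alone held 34.7%. Copies of identical sequence cannot be told apart by a read, and summed counts within a family nearly agreed. The 22 calls for 5S entries are therefore taken as 1 measurement repeated, and so are 10 calls for 5.8S entries.

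**Figure D1:**
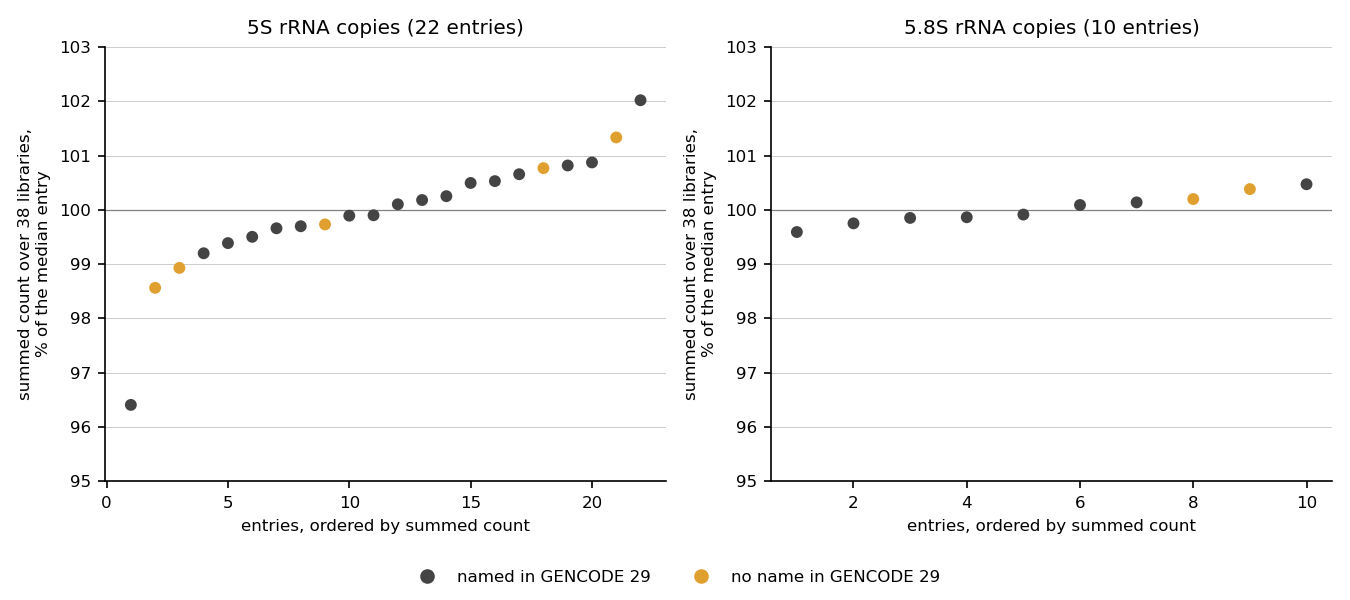
Summed count of each 5S entry (left, 22 entries) and each 5.8S entry (right, 10 entries) over 38 libraries, as a percentage of the median entry of its family, in rising order; grey points have a name in GENCODE 29 and orange points do not. The 5S entries run from 25738 to 27237 counts and the 5.8S entries from 3046077 to 3073008, and unnamed 5S entries lie both below and above the median.

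Depth ran from 5498168 to 14892937 counts per library for total RNA and from 2380745 to 15532758 for rPAL RNA. The line labels fit their markers in cell total RNA, though at low levels: CD34, a surface protein of primitive blood cells, stood at 2.95 ± 1.47 CPM, counts scaled to a common library total (SD, n = 4), in KG1a and 0.0704 ± 0.0699 (n = 3) in HL60, and MPO, a granule enzyme of promyelocytes, at 0.0181 ± 0.0362 and 2.49 ± 0.943. Of the other HL60 markers, ELANE was at 0 in both lines, and of the markers of other cells CD3E was at 0 in both and KRT18 stood at 1.65 ± 0.246 CPM in HL60. Shares are percentages of each library's counts, and log2 fold changes with their SE come from edgeR after TMM scaling, which centres a comparison on features with little change. The share of rRNA that was left out by name differed much between groups, at 42.9% ± 9.83 of rPAL and 0.956% ± 0.262 of total counts in HL60 lEV, and every share has those counts in its denominator unless stated otherwise.

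5.8S rRNA was the most abundant kind by group mean in all but 3 of the 12 groups. Its summed share was 21.5% ± 10.0 in total RNA of KG1a sEV, the highest group mean, and 1.74% ± 0.548 in rPAL RNA of HL60 lEV, the lowest. Between these lay, in falling order, KG1a sEV rPAL (15.0% ± 11.8), KG1a cell rPAL (12.7% ± 3.10), KG1a lEV total (10.4% ± 2.49), HL60 cell total (8.0% ± 0.884), HL60 sEV total (7.97% ± 3.01), KG1a lEV rPAL (7.30% ± 5.78), KG1a cell total (6.08% ± 1.82), HL60 lEV total (3.18% ± 0.186), HL60 cell rPAL (3.15% ± 0.354) and HL60 sEV rPAL (1.99% ± 1.92). In this order neighbouring groups overlapped at every step but 1, the step from KG1a cell total to HL60 lEV total. URS0002345A45 ranged from 1.61% ± 0.872 in total RNA of HL60 lEV to 15.3% ± 6.61 in rPAL RNA of KG1a sEV, and it passed 5.8S rRNA in rPAL RNA of KG1a sEV, HL60 lEV and HL60 sEV. The 5S entries together never made up more than 0.653% of a library.

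**Figure D2:**
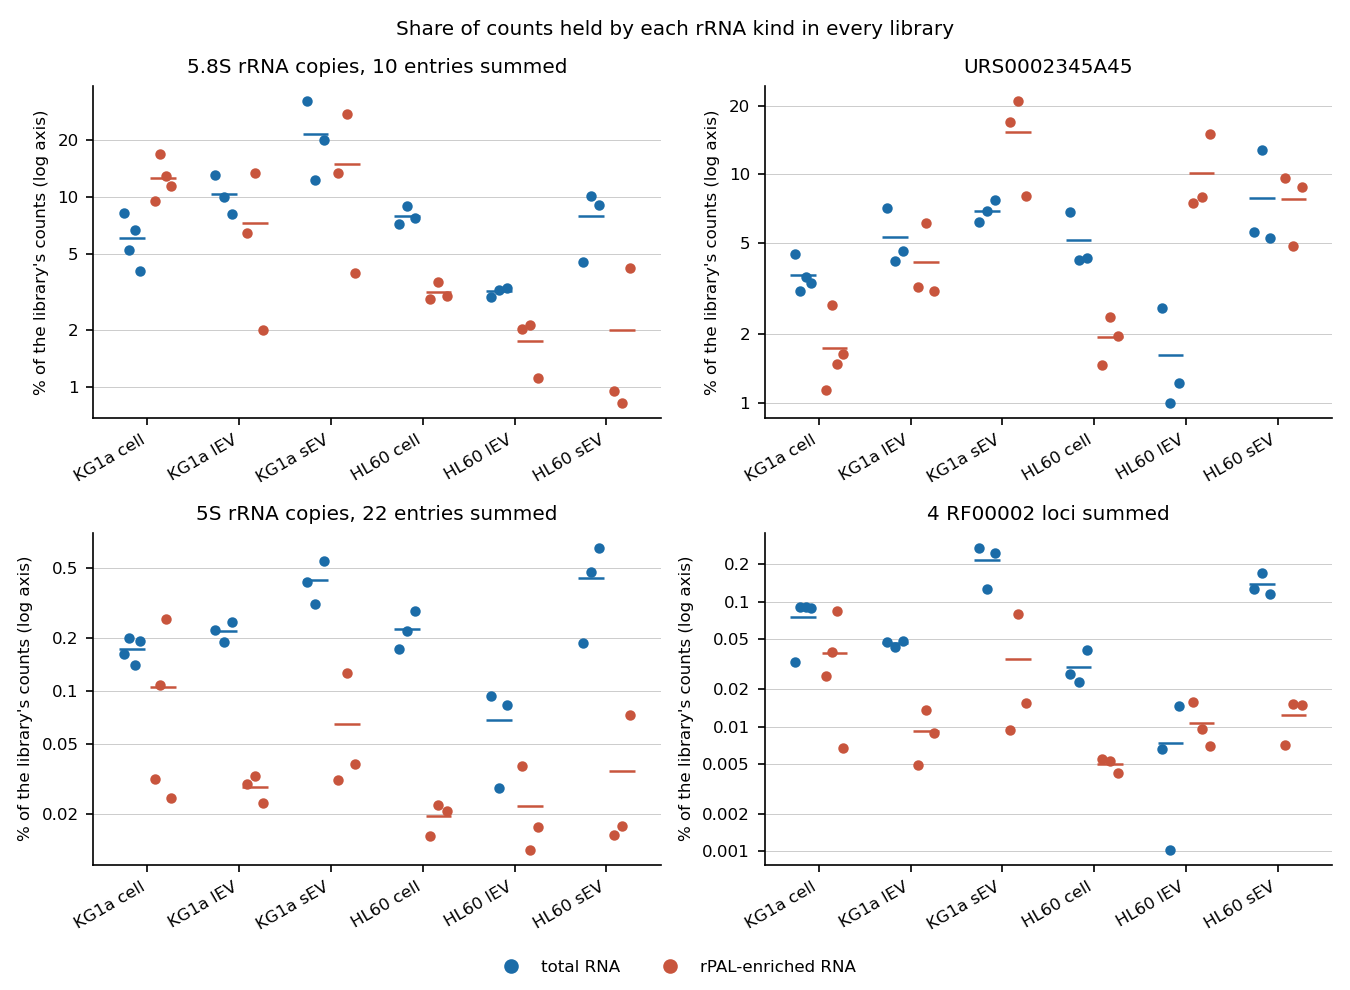
Percentage of each library's counts (log axes) in the summed 5.8S entries, URS0002345A45, the summed 5S entries and 4 RF00002 loci, for 6 sources in total and rPAL-enriched RNA; points are libraries and bars are group means. The 5.8S share of KG1a cells is higher in all 4 rPAL libraries than in any total library, and the URS0002345A45 share of HL60 lEV is higher in all 3 rPAL libraries.

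In HL60 cells, rRNA made up less of the rPAL RNA than of the total RNA in 38 of 42 tested members, and 2 members made up more. Of all tested features 38.6% were called at an adjusted p under 0.05, 18% lower and 20.6% higher, and the members' median log2 fold change was -3.69 against 0.04 for all features. The 38 include 22 entries for 5S rRNA (median -3.78) and 10 for 5.8S rRNA (median -1.63), and each family is 1 measurement. The members' median therefore follows the 5S copies. The 5.8S entries held 7.26%, 8.98% and 7.75% of the 3 total libraries and 2.89%, 3.55% and 3.01% of the rPAL libraries. The groups did not overlap, and all 10 entries fell, by 1.61 to 1.64 on the log2 scale. The 5S entries held 0.174%, 0.221% and 0.284% of total and 0.0150%, 0.0226% and 0.0209% of rPAL libraries, which is a deeper fall than that of 5.8S rRNA. All 22 of them fell, and RNA5S11, the most abundant copy, fell by 4.05 ± 0.40 (edgeR's quasi-likelihood test, adjusted p = 6.1e-05). RNA5SP150 fell by 4.39 ± 0.65 (adjusted p = 0.000765), from 16.0, 15.4 and 11.3 CPM to 0.169, 1.24 and 0.943 CPM. URS0002345A45 held 6.87%, 4.23% and 4.32% of total and 1.46%, 2.38% and 1.96% of rPAL libraries, and fell by 1.66 ± 0.22 (adjusted p = 0.000436).

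The small RNAcentral entries were higher in the rPAL RNA of HL60 cells. URS0002338F6B stood at 0.428, 0.269 and 0.559 CPM in total RNA and at 5.40, 2.80 and 5.19 CPM in rPAL RNA, a rise of 3.15 ± 0.66 (adjusted p = 0.00445). URS00023365A5 stood at 0.499, 0.336 and 0.419 CPM against 2.70, 0.932 and 4.56 CPM, a rise of 2.46 ± 0.81 (adjusted p = 0.0377). Neither pair of groups overlapped. Each total library held 4 to 8 counts of the first entry and 5 to 7 of the second, so both passed the count filter through the rPAL libraries alone and had to be higher there to be tested. The first call was lost without total replicate 2 (adjusted p = 0.0551). The second was kept in 4 of 11 alternatives, and was lost without the filter and without any 1 library other than rPAL replicate 2 (adjusted p up to 0.217). The 4 larger RF00002 loci fell by 2.81 to 2.91, while the small loci ENSG00000278294.1 (0.86 ± 0.61, adjusted p = 0.325) and ENSG00000283568.1 (0.96 ± 0.69, adjusted p = 0.325) did not pass the test.

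In KG1a cells none of 41 tested members passed the test, where 18.8% of all features did (8.89% higher, 9.86% lower). By edgeR 5 members had an unadjusted p under 0.05, as did 1855 of 6592 features tested, and DESeq2 called 2 members lower. For DESeq2, and for fits without the filter or without 1 library, the share of all features called is not given here or below. The 5.8S entries held 8.30%, 5.25%, 6.69% and 4.09% of the 4 total libraries and 9.60%, 16.9%, 13.0% and 11.4% of the rPAL libraries. These groups did not overlap and the rPAL share was the higher, the opposite order to HL60 cells, with a log2 fold change of 0.83 to 0.85 for the 10 entries and the lowest adjusted p at 0.273. The 5S entries held 0.162%, 0.202%, 0.141% and 0.192% of total and 0.0317%, 0.109%, 0.256% and 0.0249% of rPAL libraries. Replicate 3 of the rPAL group was above all total libraries and the other 3 were below them. Without rPAL replicate 3, 25 members were called lower, and without rPAL replicate 4, 1 was. URS0002345A45 held 4.50%, 3.09%, 3.56% and 3.36% against 1.14%, 2.69%, 1.48% and 1.64%, again without overlap (-1.29 ± 0.48, adjusted p = 0.0875).

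In HL60 lEV, 31 of 40 tested members fell and none rose, against a background of 31.3% called, 18.9% lower and 12.3% higher. The 5.8S entries held 2.97%, 3.24% and 3.33% of total and 2.01%, 2.11% and 1.11% of rPAL libraries, without overlap, and all 10 fell, by 2.35 to 2.37. That order of shares rests on the denominator: with the 2 left-out entries taken out of the totals the shares were 3.01%, 3.26% and 3.37% of total and 4.01%, 3.08% and 2.10% of rPAL libraries, which overlapped. Of the 22 entries for 5S rRNA 21 fell, although their shares of 0.0945%, 0.0282% and 0.0833% in total and 0.0374%, 0.0126% and 0.0169% in rPAL libraries overlapped. URS0002345A45 held 2.61%, 1.00% and 1.22% of total and 7.47%, 8.0% and 15.1% of rPAL libraries. Its groups did not overlap, and its log2 fold change of 1.23 ± 0.50 did not pass the test (adjusted p = 0.0965). These calls depend on the scaling: with library totals in place of TMM the median of all features moved from 0.08 to 1.54, no member was called lower, and URS0002345A45 alone was called higher (2.68, adjusted p = 0.00877), where 33.1% of all features were called. Without any 1 of the 3 total libraries 10 members were called, all lower.

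In HL60 sEV, 26 of 42 tested members fell and none rose, where 18.8% of all features were called, 16.3% lower and 2.51% higher. The members that fell were the 22 entries for 5S rRNA and the 4 larger RF00002 loci. The entries within each of these sets are not independent. The 5S entries held 0.187%, 0.478% and 0.653% of total and 0.0152%, 0.0171% and 0.0729% of rPAL libraries, without overlap, and RNA5S11 fell by 3.96 ± 1.03 (adjusted p = 0.0289). ENSG00000283291.1 stood at 163, 209 and 147 CPM in total and at 6.82, 10.9 and 4.62 CPM in rPAL RNA, and fell by 4.47 ± 0.95 (adjusted p = 0.0235). The 5.8S share was 4.56%, 10.2% and 9.16% in total and 0.949%, 0.822% and 4.21% in rPAL libraries, also without overlap, with log2 fold changes of -2.30 to -2.26 and adjusted p from 0.0793 to 0.0837. With the 2 left-out entries taken out of the totals the 5.8S groups overlapped, at 4.73%, 10.9% and 9.42% against 1.77%, 1.17% and 7.99%. URS0002345A45 overlapped between the groups, at 5.59%, 12.8% and 5.28% against 9.67%, 4.87% and 8.79%. Leaving out rPAL replicate 1 gave 0 calls, leaving out rPAL replicate 2 gave 1 and leaving out total replicate 3 gave 3. Without the filter on low counts none of the 26 members was called, RNA5S11 and ENSG00000283291.1 included, and the 10 entries for 5.8S rRNA were called lower in their place.

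The KG1a vesicles gave few calls. In KG1a lEV 1 of 43 tested members was called higher and 1 lower, where 10.2% of all features were called, 3.16% higher and 7.07% lower. The member called higher, RNA5SP194, is described by its counts further on. The 5S entries held 0.224%, 0.191% and 0.249% of total and 0.0297%, 0.0329% and 0.0232% of rPAL libraries. These groups lie far apart, and the 22 log2 fold changes ran from -3.27 to -2.84 with adjusted p from 0.044 to 0.0689, so that 1 entry passed. DESeq2 called 26 members lower there, and edgeR called 25 lower without rPAL replicate 3. No member was called without any 1 of the total libraries or without the filter, 1 was called without rPAL replicate 1, and 5 were without rPAL replicate 2. The 5.8S share of 13.1%, 10.0% and 8.12% in total and 6.47%, 13.5% and 1.99% in rPAL libraries overlapped. In KG1a sEV none of 43 members passed, where 6.61% of all features did (0.48% higher, 6.13% lower). By edgeR 26 members had an unadjusted p under 0.05, as did 1510 of 8128 features tested. These 26 include the 22 entries for 5S rRNA, which are 1 measurement. DESeq2 called 26 members lower. Here the 5S entries held 0.420%, 0.315% and 0.548% of total and 0.0315%, 0.126% and 0.0389% of rPAL libraries, without overlap (RNA5S11 -3.10 ± 1.24, adjusted p = 0.131). URS0002345A45 held 6.17%, 6.91% and 7.73% against 16.9%, 21.0% and 8.03%, also without overlap (0.91 ± 0.75, adjusted p = 0.551).

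**Figure D3:**
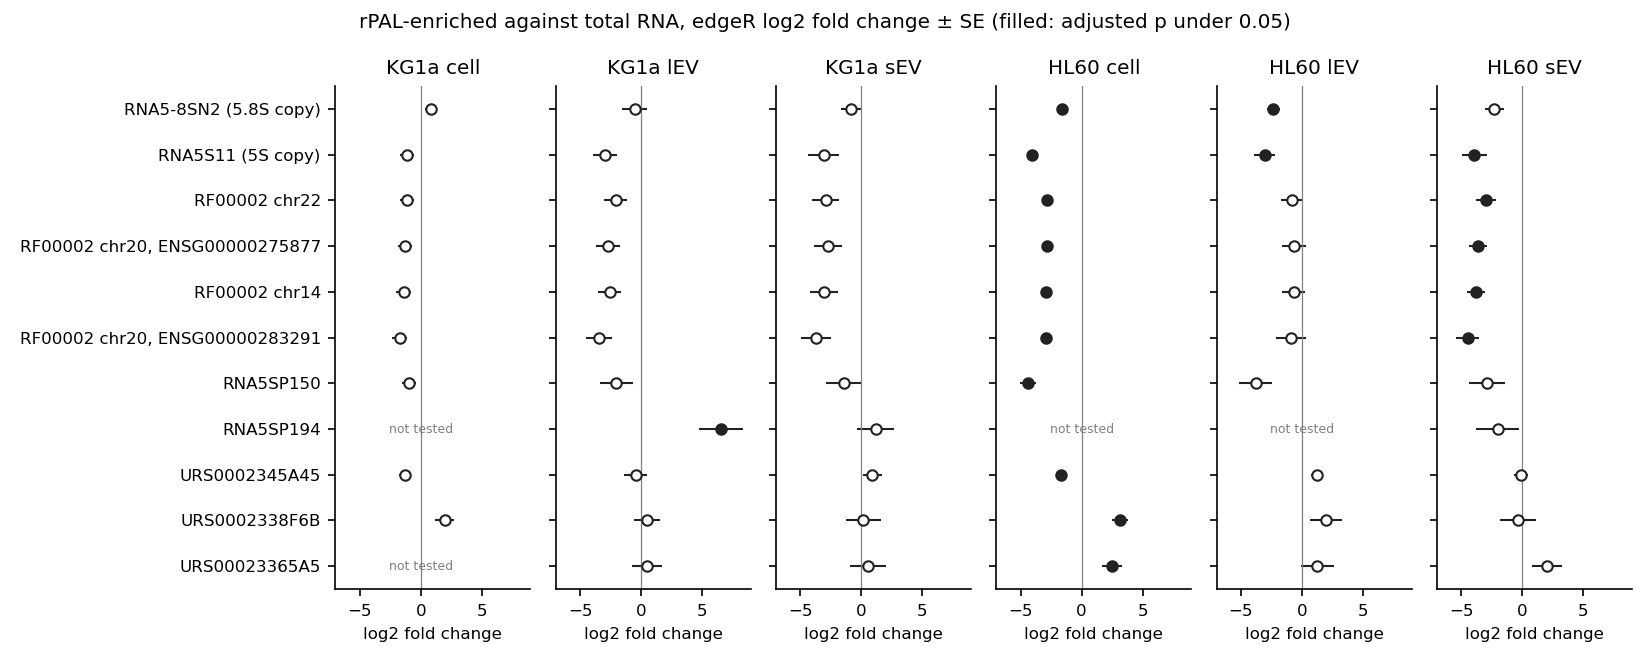
edgeR log2 fold change of rPAL-enriched against total RNA (horizontal axis, after TMM scaling) with its SE, for 11 members (rows) in 6 sources (panels); filled points have an adjusted p under 0.05. RNA5S11 lies left of 0 in all 6 panels, filled in the 3 HL60 sources, while the 5.8S copy lies right of 0 in KG1a cells alone. Without TMM both kept their sign in each source, whereas RF00002 chr22 in HL60 lEV moved from -0.85 to 0.48.

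Ratios within a library do not depend on library totals or on TMM, and they are given without a test. The 5S entries had 19.5, 38.5, 21.1 and 47.0 counts per 1000 counts of 5.8S entries in the total libraries of KG1a cells and 3.30, 6.45, 19.7 and 2.18 in the rPAL libraries. In HL60 cells the ratio was 23.9, 24.6 and 36.6 in total and 5.19, 6.37 and 6.94 in rPAL libraries. The geometric mean ratio was lower in rPAL RNA in all 6 sources, by 5.34-fold in KG1a cells, 4.24-fold in KG1a lEV, 4.43-fold in KG1a sEV, 4.55-fold in HL60 cells, 1.60-fold in HL60 lEV and 2.87-fold in HL60 sEV. The groups overlapped in KG1a cells, through rPAL replicate 3, and in HL60 lEV. Without rPAL replicate 3 the ratio was lower by 8.17-fold in KG1a cells and by 6.42-fold in KG1a lEV.

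URS0002345A45 had another pattern against 5.8S rRNA. In KG1a cells it had 543, 589, 532 and 820 counts per 1000 counts of 5.8S entries in total and 119, 160, 114 and 143 in rPAL libraries. In HL60 lEV it had 878, 309 and 368 in total and 3715, 3795 and 13531 in rPAL libraries. The geometric mean ratio was 12.4-fold higher in rPAL RNA of HL60 lEV (8.10-fold without rPAL replicate 3), 5.22-fold in HL60 sEV (8.09-fold without rPAL replicate 3) and 3.60-fold in KG1a sEV, against 0.217-fold in KG1a cells. The groups did not overlap in these 4 sources. In KG1a lEV it had 545, 415 and 567 in total and 496, 454 and 1545 in rPAL libraries. These groups overlapped, and their ratio of 1.39-fold became 0.941-fold without rPAL replicate 3. The groups overlapped in HL60 cells too, where 0.961-fold became 1.18-fold without total replicate 1 and 1.05-fold without rPAL replicate 1, so the direction turned in both sources. The 4 larger RF00002 loci were lower against 5.8S rRNA in rPAL RNA in 5 sources, by 2.30-fold to 5.41-fold, without overlap in KG1a sEV and HL60 cells alone. Leaving out 1 rPAL library moved this to 3.48-fold in KG1a cells (replicate 4), 5.19-fold in KG1a lEV (replicate 3), 3.05-fold in KG1a sEV (replicate 1) and 3.52-fold in HL60 sEV (replicate 2). In HL60 lEV they had 2.24, 0.318 and 4.37 counts per 1000 in total and 7.84, 4.50 and 6.26 in rPAL libraries, which is 4.14-fold higher and without overlap. That value rests on total replicate 2, without which it was 1.93-fold, and it was 7.16-fold without total replicate 3.

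**Figure D4:**
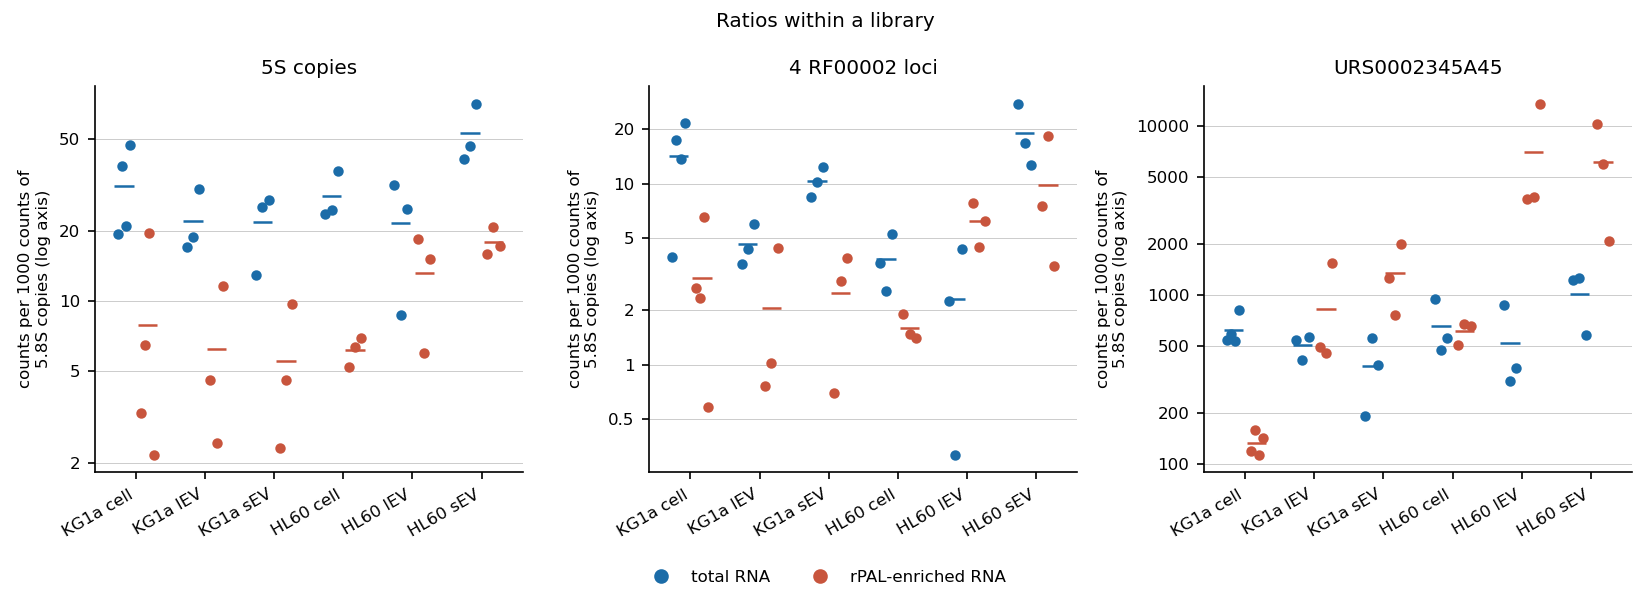
Counts of the 5S entries, 4 RF00002 loci and URS0002345A45 per 1000 counts of the 10 entries for 5.8S rRNA in the same library (log axes), for 6 sources in total and rPAL-enriched RNA; points are libraries and bars are group means. The mean 5S ratio is lower in rPAL RNA in every source, and the URS0002345A45 ratio of HL60 lEV is at most 878 in total and at least 3715 in rPAL RNA.

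The difference between sources was tested for HL60 lEV against HL60 cells, as an interaction over the 4 groups. URS0002345A45 was called, 1 of 42 tested members, where 12.7% of all features were called, 1.34% higher and 11.4% lower. Its rPAL against total difference was larger in lEV than in cells by 3.03 ± 0.69 on the log2 scale (edgeR adjusted p = 0.0143), and by 4.08 with library totals in place of TMM (adjusted p = 0.000598, with 5.73% of all features called). The median difference of all features was -0.79 after TMM and within 0.01 of 0 without it. The call was lost without total replicate 1 of the cells (adjusted p = 0.0562). The 5S entries had differences of 0.90 to 1.48 and the 5.8S entries of -0.31 to -0.28, and none passed the test.

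Vesicle and cell total RNA were compared in each line, and both comparisons of a line share its cell libraries. URS0002338F6B rose in all 4 comparisons, without overlap. In KG1a it stood at 0.362, 0.904, 1.60 and 1.18 CPM in cells, at 3.24, 3.90 and 7.65 CPM in lEV (2.18 ± 0.42, adjusted p = 0.000471) and at 14.0, 9.55 and 36.9 CPM in sEV (3.10 ± 0.51, adjusted p = 0.000758). In HL60 it stood at 0.838, 1.24 and 1.18 CPM in lEV, a rise of 2.20 ± 0.49 over cells (adjusted p = 0.00614) that became 1.36 with library totals (adjusted p = 0.0931). At 8.55, 36.9 and 4.04 CPM in HL60 sEV it rose by 5.13 ± 0.98 (adjusted p = 0.00672), a call lost without any 1 cell library. In both HL60 comparisons the entry passed the filter through the vesicle libraries alone, with 4 to 8 counts in each cell library. URS00023365A5 also rose in KG1a lEV (1.58 ± 0.64, adjusted p = 0.0489), KG1a sEV (2.55 ± 0.74, adjusted p = 0.0155) and HL60 sEV (2.35 ± 0.47, adjusted p = 0.00783), and was not tested in HL60 lEV. Its call in HL60 sEV rested on 5 to 7 counts in each cell library, passed the filter through the sEV libraries alone, and was lost without any 1 cell library or without the filter. That in KG1a sEV was lost without sEV replicate 3 or cell replicate 2. That in KG1a lEV was lost with DESeq2 (adjusted p = 0.0548) and without lEV replicate 2 or 3 or cell replicate 1 or 2.

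The RF00002 loci rose in HL60 sEV, while the 5.8S genes they resemble did not pass the test. ENSG00000276871.1 stood at 79.0, 67.1 and 122 CPM in HL60 cells and at 388, 514 and 358 CPM in sEV, a rise of 2.02 ± 0.36 (adjusted p = 0.00525). All 5 tested loci rose, by 1.84 to 2.02, against log2 fold changes of -0.27 to -0.25 for the 5.8S entries (lowest adjusted p = 0.619). The loci resemble one another in sequence, so these rises are not independent. In this comparison 7 of 41 members rose, which is 5 loci and the 2 small RNAcentral entries, where 26.7% of all features were called, 13.9% higher and 12.8% lower. Without cell replicate 1 or cell replicate 2 none of the 7 was called, and without cell replicate 3, 2 were called. In KG1a lEV 1 locus fell: ENSG00000283291.1, at 40.1, 137, 134 and 140 CPM in cells and 60.0, 47.5 and 52.9 CPM in lEV, changed by -1.15 ± 0.42 (adjusted p = 0.0291), with overlap through cell replicate 1. The call was kept in 6 of 12 alternatives. It was lost, among others, without lEV replicate 2 or 3 and without cell replicate 2, 3 or 4 (adjusted p up to 0.136).

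Few other members were called between vesicles and cells after TMM scaling, and more without it. In these bulk libraries a smaller number of RNA-bearing cells or vesicles of a type and less RNA in each cannot be told apart. In KG1a lEV 2 members of 42 rose and 1 fell, where 52.3% of all features were called (23.8% higher, 28.5% lower). In KG1a sEV 2 of 42 rose, where 45.1% were called (23% higher, 22.1% lower), and in HL60 lEV 1 of 40 rose, where 27.3% were called (12.1% higher, 15.2% lower). With library totals in place of TMM, 13 members were called in KG1a lEV, where 51.4% of all features were. In KG1a sEV every tested member had higher CPM, which is not scaled by TMM, in all sEV than in any cell library. The share of all features that did so is not given here, so this order is not read as particular to rRNA. Without TMM 41 members were called higher, where 61.6% of all features were called, while the median of all features moved from 0.22 to 1.36. In HL60 lEV 34 members were called lower without TMM, where 27.3% of all features were called and that median moved from 0.16 to -0.62. Leaving out KG1a cell replicate 1 raised the KG1a lEV count from 3 to 15 members (1 without lEV replicate 3, cell replicate 2 or cell replicate 3), and leaving out lEV replicate 1 raised the HL60 lEV count from 1 to 25. Without KG1a cell replicate 2 the KG1a sEV count fell from 2 to 1.

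RNA5SP194 had counts in every library of sEV total RNA and in 1 library of cell total RNA. Of its 1138 summed counts, sEV total RNA held 305 in KG1a and 225 in HL60, and sEV rPAL RNA held 371 and 25. Without its sEV counts it would not have reached the 500 counts that made it a member. Its excess in sEV over cells is therefore tied to how it was chosen and is no test. RNA5SP194 had 0 counts in total RNA of KG1a cells, which allows up to 0.0619 CPM over the group, and 1 count in total RNA of HL60 cells. In KG1a sEV total RNA it stood at 2.25, 32.3 and 0.810 CPM, over the group at least 186-fold higher than the KG1a cell limit of 3 counts, and at least 25.2-fold higher without replicate 2. In HL60 sEV total RNA it stood at 6.91, 21.8 and 0.480 CPM. In each line the second sEV library was far above the others. Total RNA of KG1a lEV held 2 counts and that of HL60 lEV none, which allows up to 0.0767 CPM. In rPAL RNA of KG1a lEV it stood at 15.1, 1.62 and 3.49 CPM, or 179 counts over the group, and in that of HL60 lEV it had 23. Over the group it stood at 31.2 CPM in KG1a sEV rPAL and 2.57 CPM in HL60 sEV rPAL. In rPAL RNA of cells it had 5 counts in 2 of 4 KG1a libraries and 2 counts in 2 of 3 HL60 libraries. The call of rPAL against total RNA in KG1a lEV (edgeR adjusted p = 0.0319) came from an entry that passed the filter through the rPAL libraries alone, and with 2 counts in total RNA it is given no fold. It was kept in 6 of 11 alternatives, and was lost without the filter and without any 1 of the total libraries (adjusted p up to 0.214). The entry passed the filter in none of the comparisons of vesicles with cells.

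**Figure D5:**
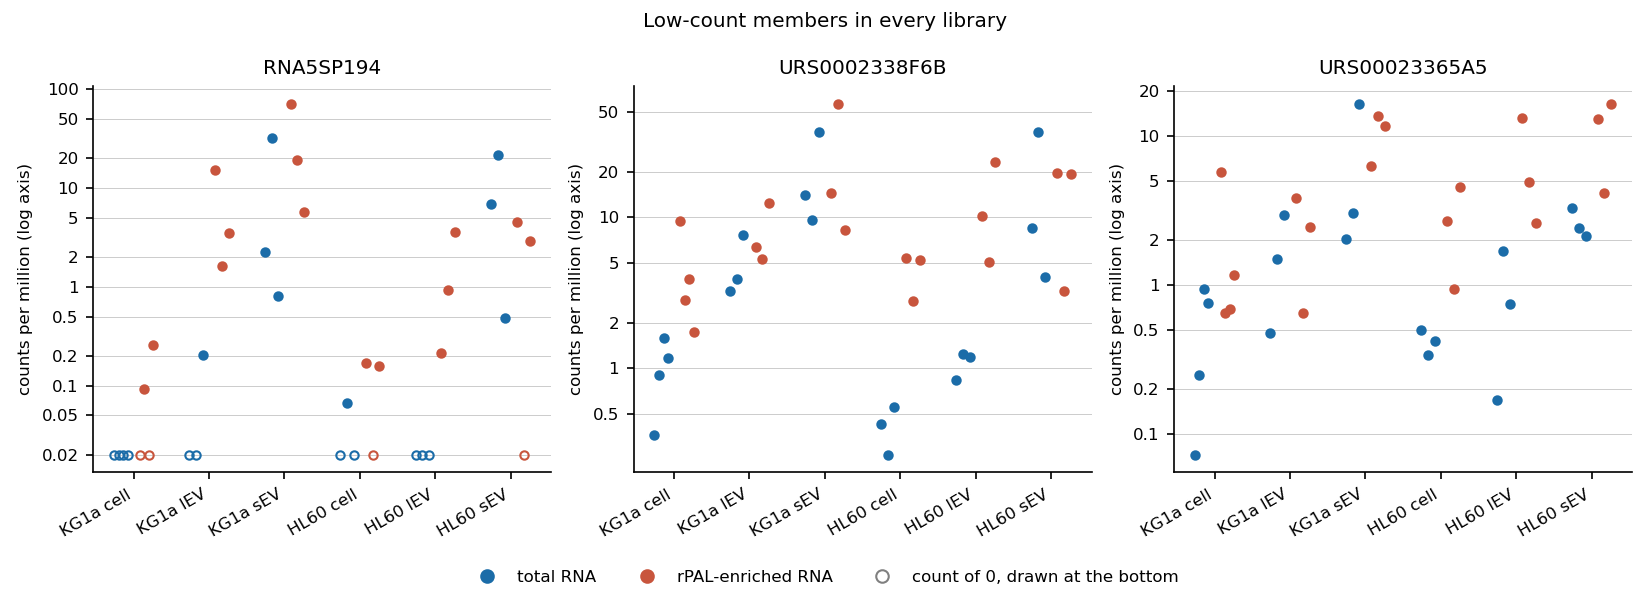
CPM (log axes) of RNA5SP194, URS0002338F6B and URS00023365A5 in every library of 6 sources, in total and rPAL-enriched RNA; open points at the bottom are counts of 0. RNA5SP194 lies at 0 in the total libraries of KG1a cells and between 0.480 and 32.3 in those of sEV, and URS0002338F6B lies higher in vesicle than in cell total RNA of the same line.

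Between the lines, in cell total RNA, 2 of 41 tested members were higher in HL60 and 6 lower, where 39.9% of all features were called, 18.4% higher and 21.5% lower. RNA5SP150 stood at 16.0, 15.4 and 11.3 CPM in HL60 and at 5.65, 5.26, 5.28 and 7.22 CPM in KG1a (1.38 ± 0.31, adjusted p = 0.00146). The groups did not overlap, while the 5S copies it resembles did not pass the test (0.38 to 0.51). All 6 RF00002 loci were called lower in HL60, with log2 fold changes of -1.47 to -0.79, and DESeq2 called 4 of them. These calls are not independent, since the loci resemble one another in sequence. ENSG00000276871.1 stood at 101, 261, 269 and 253 CPM in KG1a, where replicate 1 lies within the HL60 range. The opposite order held for the 5.8S entries, at 0.48 to 0.50, which did not pass the test. URS0002345A45 was higher in HL60 by 0.57 ± 0.21 (adjusted p = 0.0397), with overlap, and 5 of 12 alternatives kept the call, DESeq2 not among them. The calls of the small loci ENSG00000278294.1 and ENSG00000283568.1 were kept in 3 and 4 of 12. The 8 calls became 4 without HL60 replicate 1, 5 without HL60 replicate 2 and 17 without KG1a replicate 1.

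Mitochondrial rRNA, which belongs to the ribosome of that organelle, fell in vesicle against cell total RNA: MT-RNR1 and MT-RNR2 fell by 3.32 and 1.96 in KG1a lEV, by 3.75 and 2.66 in KG1a sEV and by 3.60 and 2.64 in HL60 sEV, and MT-RNR1 alone was called in HL60 lEV (2 of 2 tested in each, all-feature median between -0.01 and 0.22, with 52.3%, 45.1%, 26.7% and 27.3% of all features called). In rPAL against total RNA both fell in HL60 cells, by 2.30 and 5.56, where 38.6% of all features were called. MT-RNR2 had 2 to 4 counts in each of these rPAL libraries. It passed the filter through the total libraries alone, so it could be called only lower. In KG1a cells 18.8% of all features were called. There MT-RNR1 fell by 3.04 with 1 to 101 counts in the rPAL libraries, and MT-RNR2 gave -1.65 (adjusted p = 0.244). Neither passed in KG1a lEV (lowest adjusted p = 0.0504) or KG1a sEV (lowest adjusted p = 0.351), MT-RNR2 alone was tested in HL60 lEV (-0.50, adjusted p = 0.88), and neither was tested in HL60 sEV. Of 16 RNAs that act in cleavage of the rRNA precursor, 3 passed the count filter (SNORA73B, SNORD14A and SNORD14E). In rPAL against total RNA 1 rose and 1 fell in KG1a cells (18.8% of all features called) and 1 fell in KG1a lEV (10.2%). In each other source 2 fell and none rose, where 38.6% of all features were called in HL60 cells, 31.3% in HL60 lEV, 6.61% in KG1a sEV and 18.8% in HL60 sEV. In HL60 lEV the 2 that fell, SNORA73B and SNORD14A, had 0 counts in every rPAL library. The same held for SNORA73B and SNORD14E in HL60 sEV. In these cases the RNA passed the filter through the total libraries alone, so it could be called only lower. SNORD14E, a U14 RNA needed for 18S rRNA, fell in rPAL RNA of 5 sources, by 3.38 in KG1a cells and 6.89 in HL60 cells, and gave -3.75 (adjusted p = 0.199) in HL60 lEV.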

How the data were processed

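Raw read counts per feature were deposited by the authors as 1 table of 38 libraries. The submitters' processing notes name Bowtie2 and the genome build GRCh38 (hg38). The counting program, the annotation and the treatment of reads with several best hits are not given in the sources used here, and that treatment decides how reads of identical copies are shared. Library totals were 5498168 to 14892937 (total RNA) and 2380745 to 15532758 (rPAL), and counting error alone gives each printed family share a 95% Wilson interval of at most 16.6% of its value on either side.

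Comparisons were fitted over all features that passed filterByExpr, with edgeR 4.0.16 (TMM, robust quasi-likelihood test, Benjamini-Hochberg adjustment over all features, threshold 0.05) in R 4.3.3, on the libraries of the groups compared only. The fit was tested on simulated data. Alternatives were DESeq2 1.42.0, library totals without TMM, no filter, a replicate block, leaving out each library and, chosen after seeing the data, summing the 5S and the 5.8S copies before the fit. Named members were the 10 of highest mean CPM, up to 3 per direction and comparison among called members of at least 10 CPM without overlap, and those with a symbol, with 1 per near-identical set. Members and lists were chosen with earlier results of these data known. Outside that rule, URS0002338F6B, URS00023365A5 and the low RF00002 loci were named after their values were seen. Sequences come from GENCODE 29, and those of the 5S entries are not reported here. Names were matched for 33 of 40 Ensembl members and sequences for 28 of 43 members. Replicate numbers are not taken to pair libraries.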

Additional observations from a re-analysis of the deposited data

Results flagged for a closer look

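Replicate 1 of KG1a cell total RNA stood apart from the other 3 libraries of its group for the 4 larger RF00002 loci. Together they held 0.0328% of its counts, against 0.0886% to 0.0914% in the others. ENSG00000276871.1 stood at 101 CPM against 253 to 269, ENSG00000275877.1 at 95.5 CPM against 252 to 262, ENSG00000283274.1 at 91.8 CPM against 242 to 256, and ENSG00000283291.1 at 40.1 CPM against 134 to 140. The summed share is made of the 4 loci, and the loci resemble one another in sequence, so the 5 values are not independent. URS00023365A5 stood at 5.71 CPM in replicate 1 of KG1a cell rPAL RNA against 0.643 to 1.16 CPM in the other 3. Of 46 groups of 4 values examined, these 6 had a sample far from the others, and chance gives about 1 in 20.

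The rPAL against total difference of URS0002345A45 differed between HL60 lEV and HL60 cells by 3.03 on the log2 scale, tested as an interaction (edgeR adjusted p = 0.0143, and 0.0562 without total replicate 1 of the cells).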

How the results depend on the processing

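For DESeq2, no filter, the replicate block, summed copies or 1 library left out, the share of all features called is not given. Counts under those settings do not show whether members moved more than all features did. The number of members called in rPAL against total RNA moved as follows. In KG1a cells it was 0, 2 with DESeq2 and 0 to 25 when 1 library was left out. In HL60 cells it was 40, and 38 to 40 without 1 library. In KG1a lEV it was 2, but 27 with DESeq2, 0 without the filter, 0 with the replicate block, 1 with the copies summed and 0 to 26 without 1 library. In HL60 lEV it was 31, but 1 without TMM, 10 without the filter, 12 with the replicate block and 10 to 34 without 1 library. In KG1a sEV it was 0, 26 with DESeq2 and 0 to 0 without 1 library. In HL60 sEV it was 26, 10 without the filter (none of them among the 26) and 0 to 35 without 1 library. Between sources, KG1a lEV against cells had 3, but 13 without TMM, 13 with the copies summed and 1 to 15 without 1 library, and KG1a sEV had 2, 41 without TMM and 1 to 2. In every fit with the copies summed, the 1 result of a family was counted for each of its 22 or 10 entries. HL60 lEV had 1, 3 with DESeq2, 34 without TMM, 2 without the filter, 2 with the replicate block and 1 to 25, and HL60 sEV had 7 and 0 to 8. HL60 against KG1a cells had 8, 5 with DESeq2, 5 without the filter and 4 to 17, and the interaction had 1, 7 with DESeq2 and 0 to 1. Same-numbered libraries correlated over 0.1 in every pair in no comparison, so replicate numbers were not taken to pair libraries. Weak correlations over so few libraries cannot exclude that same-numbered libraries shared a preparation. The block moved no other count by over 1.5 times. Of the single calls named, the block ended those of URS00023365A5 in rPAL RNA of HL60 cells, RNA5SP194 in rPAL RNA of KG1a lEV, RNA5S11 in rPAL RNA of HL60 lEV, ENSG00000283291.1 in KG1a lEV against cells and ENSG00000283568.1 between the lines. The summed share of all members differed (rPAL minus total, in percentage points) by 4.65 in KG1a cells (2.94 to 5.91 without 1 library, -1.26 with 1 entry per near-identical set), by -4.51 in KG1a lEV (-8.57 to -1.32) and by 1.29 in KG1a sEV (-7.86 to 10.4, turning to -7.86 without rPAL replicate 2 and -3.41 without total replicate 2). It differed by -8.28 in HL60 cells (-8.78 to -7.81, -3.73 with 1 entry per set), by 7.09 in HL60 lEV (4.96 to 8.30, 16.6 with the 2 left-out entries taken out of the totals) and by -6.63 in HL60 sEV (-9.62 to -3.02, 0.345 with those entries out, -0.860 with 1 entry per set). The values with 1 entry per set keep 1 of the 10 entries for 5.8S rRNA and 1 of the 22 for 5S rRNA. Because counts are spread nearly evenly over the copies, most counts of both RNAs are left out there, while URS0002345A45 stays whole. A changed sign or size in that setting is therefore no test of the difference. Of 480 refits of 42 calls of single entries, 376 kept the call, 104 lost it and 0 reversed. The entries include both RNA5S11 and RNA5S9 and several RF00002 loci, so these calls are not independent. Ratios to 5.8S rRNA and the level of RNA5SP194 were also computed without each library, and family shares without the 2 left-out entries, chosen after seeing the data. The causes of these moves were not tested.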
